A study of Mus musculus with 18 samples.

Results

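The small leucine-rich proteoglycans are secreted matrix proteins, and 8 of their genes are described here: Ogn (osteoglycin), Dcn (decorin), Bgn (biglycan), Lum (lumican), Fmod (fibromodulin), Prelp, Aspn (asporin) and Omd (osteomodulin). They were chosen by symbol from the gene column of 3 deposited tables that together list 10133 symbols. The choice was made knowing that Ogn and Dcn lay on opposite sides, so their values are a description. Of the 8 genes, 5 were listed in at least 1 table (Ogn, Dcn, Bgn, Fmod and Aspn), and 3 in all tables (Ogn, Dcn and Bgn). Lum, Prelp and Omd were in none.

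The study measured polyadenylated RNA from 2 immortalized mouse embryonic fibroblast (MEF) lines with single-end, strand-specific sequencing. The mutant line, labelled eIF2aS51A and called S51A here, carries eIF2α, a translation initiation factor, with alanine in place of the serine on which stress kinases act. The other line is labelled Wild-Type (WT). The groups were S51A and WT cells left untreated (0 min), S51A and WT cells given 500 µM hydrogen peroxide for 15 min, and S51A and WT cells given it for 120 min. All were grown in the same serum-containing medium. The labels give 3 samples per group, 18 in all, whereas the design text speaks of duplicates. With a single line of each genotype, an effect of the mutation cannot be told apart from one of the line, and nothing in the labels says that samples came from separate cultures.

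The tables cover 1 time each and hold the genes that passed the authors' test of S51A against WT, with a single value per line in FPKM (fragments mapped, scaled to transcript length and library size). Neither the spread between samples nor the depth behind a value is known, so values carry no error. "Higher" and "lower" below mean that the gene was listed by the authors, at a q-value of at most 0.05. A gene in no table was not listed there, which says nothing about its level or about equality of the lines. The tables list 7555 entries at 0 min, 8308 at 15 min and 6119 at 120 min. In these bulk samples fewer cells that express a gene and less RNA per cell cannot be told apart.

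Proteins of this family have a core of leucine-rich repeats, and most carry chondroitin, dermatan or keratan sulfate chains. They bind collagen and tune how fibrils grow in width and pack together. Several also bind growth factors of the TGF-β family or cell-surface receptors, and in connective tissue they are products of fibroblasts, tenocytes, chondrocytes and osteoblasts. Class I holds decorin, biglycan and asporin, class II fibromodulin, lumican, PRELP and osteomodulin, and class III osteoglycin.

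Most of the genes sit in clusters. Only Fmod was listed from the cluster on chromosome 1 and only Dcn from that on chromosome 10, so no pattern by cluster can be read. Fmod, Prelp and the family gene Optc are on chromosome 1, with 107 kb between Prelp and Fmod. Dcn, Lum, Kera and Epyc follow each other on chromosome 10, with 47.3 kb between Dcn and Lum. Ecm2, Aspn, Omd and Ogn lie in a row on the plus strand of chromosome 13, 11.7, 14.9 and 15.4 kb apart. Bgn, which starts at 73483601 on chromosome X, is in no cluster, the family gene Nyx lying far from it at 13461090 to 13492820. Promoter sequence of 300 bases, 250 before and 50 after the gene start, was found in RefSeq (GRCm38.p6, the assembly also named mm10) for 6 of the 8 genes, Dcn and Lum being the others. The promoters of the 3 genes that were higher in S51A and of Bgn, which was lower, are shown 5′ to 3′ because they let the sequence beside the start be compared between the sides. All 4 are on the plus strand. They span chr13:49607765-49608064 (Ogn), chr13:49544193-49544492 (Aspn), chr1:134037004-134037303 (Fmod) and chrX:73483351-73483650 (Bgn). Capitals mark matches, on either strand, to the TATA box (TATAAA), the AP-1 site (TGANTCA), the core bound by TEAD factors (GGAATG) and the GC box (GGGCGG).
Ogn: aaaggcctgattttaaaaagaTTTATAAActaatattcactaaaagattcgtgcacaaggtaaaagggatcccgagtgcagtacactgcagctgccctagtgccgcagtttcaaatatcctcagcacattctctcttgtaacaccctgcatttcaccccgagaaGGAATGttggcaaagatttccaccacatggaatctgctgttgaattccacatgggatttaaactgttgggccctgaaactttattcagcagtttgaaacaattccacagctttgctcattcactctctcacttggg
Aspn: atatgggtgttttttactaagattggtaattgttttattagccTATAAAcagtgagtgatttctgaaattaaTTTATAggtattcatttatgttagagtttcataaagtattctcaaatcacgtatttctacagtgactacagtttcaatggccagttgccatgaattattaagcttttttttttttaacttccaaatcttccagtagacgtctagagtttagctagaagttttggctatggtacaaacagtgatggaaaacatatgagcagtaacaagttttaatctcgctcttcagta
Fmod: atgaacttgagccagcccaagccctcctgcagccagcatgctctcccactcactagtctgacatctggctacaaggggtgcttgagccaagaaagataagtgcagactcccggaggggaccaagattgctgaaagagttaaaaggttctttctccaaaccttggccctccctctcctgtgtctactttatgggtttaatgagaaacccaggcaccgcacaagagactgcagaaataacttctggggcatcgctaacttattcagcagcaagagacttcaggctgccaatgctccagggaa
Bgn: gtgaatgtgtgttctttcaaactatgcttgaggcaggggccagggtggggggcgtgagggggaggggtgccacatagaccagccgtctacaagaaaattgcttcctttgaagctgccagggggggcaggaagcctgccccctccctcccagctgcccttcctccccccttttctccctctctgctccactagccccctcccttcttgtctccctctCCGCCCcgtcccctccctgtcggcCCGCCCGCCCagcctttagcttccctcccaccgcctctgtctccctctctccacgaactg

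The Ogn promoter held TATAAA on both strands at bases 22 to 29 of the window, in overlapping copies, and GGAATG at bases 165 to 170. In the Aspn window TATAAA lay at bases 44 to 49 and, on the minus strand, at bases 73 to 78. The Bgn window held GGGCGG on the minus strand, starting at bases 217, 241 and 245, the last pair overlapping, and the Fmod window held none of the 4 motifs. Over all 32851 promoters of the same length, 13.6% held TATAAA, 7.81% TGANTCA, 14.7% GGAATG and 35.7% GGGCGG. GC content was 42.3% for Ogn, 31.0% for Aspn, 51% for Fmod and 63.7% for Bgn, against a median of 52.7% over all promoters. The promoter of Ogn held 4 CpG, that of Aspn 3, that of Fmod 3 and that of Bgn 9, against a median of 7. The TATAAA matches began at positions from -229 to -178, counted from the RefSeq start, so none lay just before that start. The windows rest on RefSeq starts, and that of Fmod ends at 134037303, before its deposited start of 134037515. These matches are letters in a window and were not tested as binding sites.

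Ogn, the class III gene whose product osteoglycin (mimecan) is a keratan sulfate proteoglycan in some tissues, had the widest gap between the lines of the listed members. At 0 min it was at 229 FPKM in S51A and 0.559 FPKM in WT. At 15 min it was at 237 FPKM in S51A and 0.432 FPKM in WT, and at 120 min at 152 FPKM in S51A and 0.511 FPKM in WT. The S51A value was thus 410.1-fold, 549-fold and 298-fold the WT value at 0, 15 and 120 min. All 3 S51A values, 1 per time, lay far above all 3 WT values. Only genes called different were listed, and how many others were separated in this way was not counted. Among listed genes above 0 in both lines, this ratio ranked 3 of 7460 at 0 min, 3 of 8186 at 15 min and 4 of 6009 at 120 min, counted from the highest. By level, Ogn ranked 225 of 7555 entries in untreated S51A and 7046 of 7555 in untreated WT. Its q-value was the smallest of each of the authors' deposited tables, a value shared by 4905, 5803 and 3041 entries at 0, 15 and 120 min.

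Aspn, the class I gene of asporin, which binds collagen and TGF-β and carries no glycosaminoglycan chain, lies in the same cluster as Ogn. It was listed at 120 min, at 6.59 FPKM in S51A and 0.179 FPKM in WT, a 36.8-fold difference. The q-value in the authors' deposited table was 0.0174, and 5125 of the 6119 entries had a q-value no larger. Its ratio ranked 35 of the 6009 genes above 0 in both lines. Its levels at 0 and 15 min are not given by the tables, so no course over time can be drawn for it.

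The tables give Ogn and Aspn the same locus, chromosome 13 from 49464059 to 49652731 in mm10. That span nearly matches Cenpp, placed by RefSeq at 49464025 to 49652950, a centromere protein gene on the minus strand that encloses Ecm2, Aspn, Omd and Ogn. RefSeq places Ogn at 49608015 to 49624501 and Aspn at 49544443 to 49567565. Cenpp, Ecm2 and Omd were in no table. The libraries mark strand, but the sources used here do not say whether quantification used strand, so reads of Cenpp introns cannot be told apart from those of the enclosed genes on this information. At 120 min 106 entries shared a locus with another entry, among them Ogn and Aspn.

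**Figure D1:**
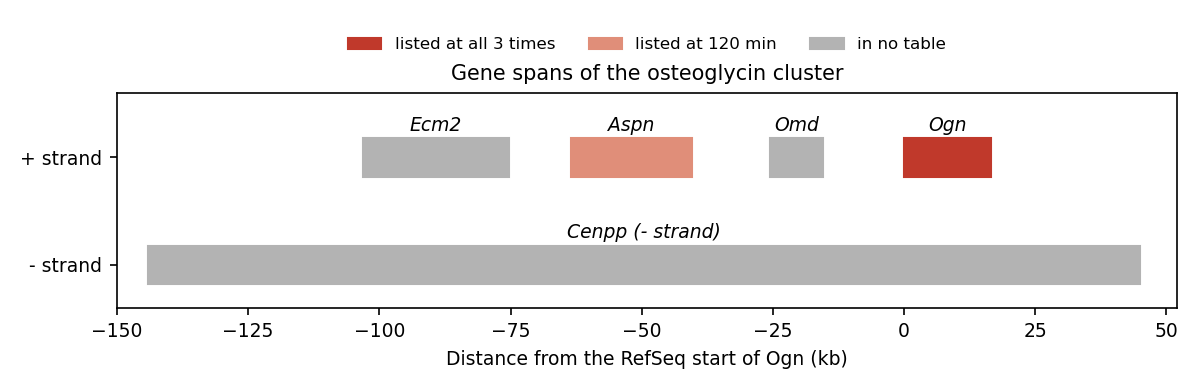
Gene spans on both strands around Ogn, as distance in kb from its RefSeq start. Ogn (listed at 3 times) and Aspn (listed at 120 min) stand on the plus strand inside the span of the minus-strand gene Cenpp, and Omd, Ecm2 and Cenpp were in no table.

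Fmod, the class II gene of fibromodulin, which binds collagen I, was the other member higher in S51A. At 0 min it was at 1.92 FPKM in S51A and 0.0718 FPKM in WT, a 26.7-fold difference with a q-value of 0.0019 in the authors' deposited table. At 120 min it was at 1.40 FPKM in S51A and 0.155 FPKM in WT, a 9.06-fold difference with a q-value of 0.00598 in the authors' deposited table. It was not listed at 15 min. Both levels in S51A were low, ranking 6740 of 7555 entries at 0 min and 5506 of 6119 at 120 min. Its span in the tables is chromosome 1 from 134037515 to 134048277.

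Dcn, the class I gene of decorin, which carries 1 chondroitin or dermatan sulfate chain, binds collagen I fibrils and can sequester TGF-β, lay on the opposite side. At 0 min it was at 8.88 FPKM in S51A and 54.2 FPKM in WT, 6.11-fold lower in S51A. At 15 min it was at 9.13 FPKM in S51A and 49.5 FPKM in WT, 5.43-fold lower. At 120 min it was at 10.9 FPKM in S51A and 56.1 FPKM in WT, 5.13-fold lower. The 3 S51A values, 1 per time, lay between 8.88 and 10.9 FPKM and the 3 WT values between 49.5 and 56.1 FPKM. How many other listed genes were separated in this way was not counted. Its ratio ranked 159 of 7460, 187 of 8186 and 163 of 6009 genes above 0 in both lines at 0, 15 and 120 min, counted from the lowest. Dcn spans chromosome 10 from 97479500 to 97518162 in the tables.

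Bgn, the class I gene of biglycan, which can carry a pair of chondroitin or dermatan sulfate chains and in soluble form signals through TLR2 and TLR4, had the highest level of the listed members in both lines. At 0 min it was at 465 FPKM in S51A and 584 FPKM in WT, 1.26-fold lower in S51A, with a q-value of 0.011 in the authors' deposited table. At 15 min it was at 434 FPKM in S51A and 671 FPKM in WT, 1.55-fold lower. At 120 min it was at 338 FPKM in S51A and 671 FPKM in WT, 1.99-fold lower. The 3 S51A values, 1 per time, were all below the 3 WT values, a separation not counted over other listed genes. The ratio was farther from equality at each later time. Bgn ranked 91 of 7555 entries by level in untreated S51A and 121 in untreated WT. It spans chromosome X from 73483635 to 73495936.

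**Figure D2:**
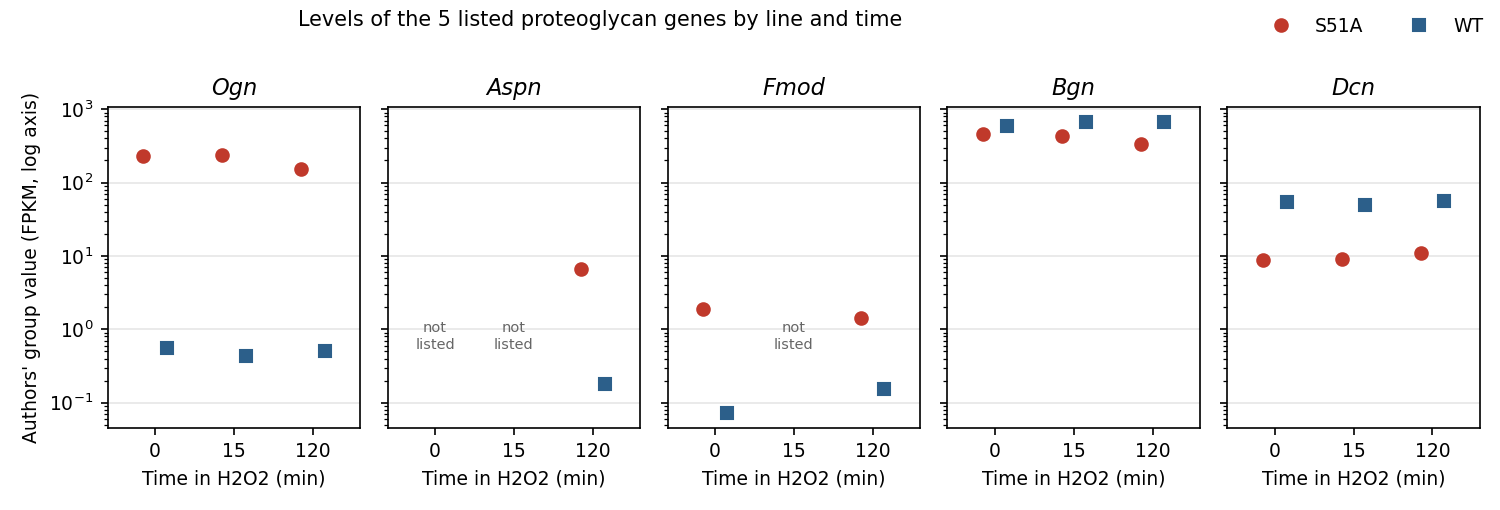
The authors' FPKM value of each listed gene (log axis) in S51A (circles) and WT (squares) at 0, 15 and 120 min, with 1 value per line and time and hence no error bar. Ogn stood at 152 to 237 FPKM in S51A and under 1 FPKM in WT, while Bgn and Dcn were lower in S51A at every time and Fmod and Aspn had missing times.

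Counted together, 2 of 4 listed members were higher and 2 lower in S51A at 0 min, where 49.6% of all listed entries were higher and 50.4% lower. At 15 min 1 of 3 was higher and 2 lower, against 49.9% and 50.1% of all entries. At 120 min 3 of 5 were higher and 2 lower, against 50.9% and 49.1%. These counts are near the shares over all entries and show no common direction of the family. Their median log2 ratio, S51A over WT, was 2.21, -0.64 and 3.19 at 0, 15 and 120 min, against -0.27, -0.20 and 0.41 over all entries. The median followed which members were listed at each time.

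The size of the ratios set the members apart from each other. At least a 2-fold difference was held by Ogn and Fmod upward and Dcn downward at 0 min, Bgn staying under 2-fold at every time. For comparison, 22.1% of all entries were at least 2-fold higher and 15.0% at least 2-fold lower at 0 min. At 15 min Ogn was the member at least 2-fold higher and Dcn the member at least 2-fold lower, against 20.2% and 12.3% of all entries. At 120 min Ogn, Fmod and Aspn were at least 2-fold higher and Dcn at least 2-fold lower, against 26.5% and 20.9% of all entries. The log2 ratios of the listed members ran from -2.60 for Dcn to 8.69 for Ogn in the authors' deposited table at 0 min, and from -2.36 to 8.22 in that at 120 min.

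**Figure D3:**
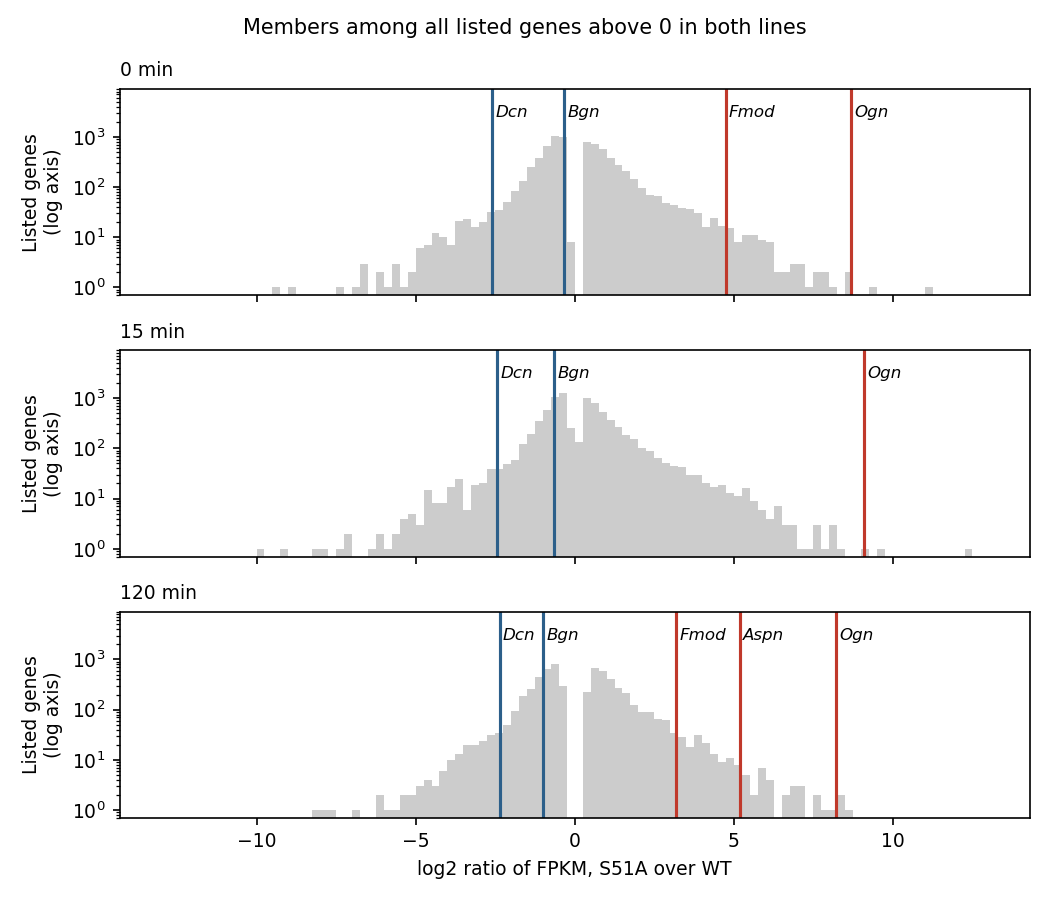
Histograms of the log2 ratio of FPKM, S51A over WT, for listed genes above 0 in both lines at each time (counts on a log axis), with members as vertical lines. Ogn stands near the upper end at every time, Fmod and Aspn between it and the centre, Bgn close to the gap of uncalled genes and Dcn on the lower side.

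FPKM is scaled to transcript length, so levels may be set side by side between genes. Summed over Ogn, Dcn and Bgn, the level was 703 FPKM in S51A and 639 FPKM in WT at 0 min, 679.9 FPKM in S51A and 721 FPKM in WT at 15 min, and 501 FPKM in S51A and 728 FPKM in WT at 120 min. Bgn made up 66.1%, 63.8% and 67.4% of that sum in S51A at 0, 15 and 120 min, against 91.4%, 93.1% and 92.2% in WT. Ogn made up 32.6%, 34.9% and 30.4% in S51A, against 0.0874%, 0.0600% and 0.0702% in WT. Dcn made up 1.26%, 1.34% and 2.18% in S51A, against 8.48%, 6.87% and 7.71% in WT. The order of levels was therefore Bgn, Ogn, Dcn in S51A and Bgn, Dcn, Ogn in WT at every time. Neighbours in that order were at least 1.83-fold apart, the closest being Bgn and Ogn in S51A at 15 min, but no spread is known to set this against.

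Across times, levels come from separate tables that may have been scaled separately, so the following changes are descriptive. They are given as the change of log2(FPKM + 1) from 0 min, centred on the median of all genes listed in both tables. That median itself was -0.18 in S51A and -0.10 in WT for 120 min, over 4328 genes. After 120 min Ogn changed by -0.41 in S51A and 0.053 in WT. For Bgn the change was -0.28 in S51A and 0.30 in WT, so its values in the lines moved apart. For Dcn it was 0.45 in S51A and 0.15 in WT, the same direction in both. Fmod changed by -0.10 in S51A and 0.21 in WT, but its WT value stayed under 0.2 FPKM. In S51A, 75.1% of genes had a smaller change than Dcn, and 24.9% a smaller change than Ogn, so none of these lay at an extreme. In WT 8.23% of genes had a larger change than Bgn. At 15 min, over 6369 genes, Ogn changed by 0.031 in S51A and -0.13 in WT, Bgn by -0.12 in S51A and 0.19 in WT, and Dcn by 0.017 in S51A and -0.14 in WT.

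**Figure D4:**
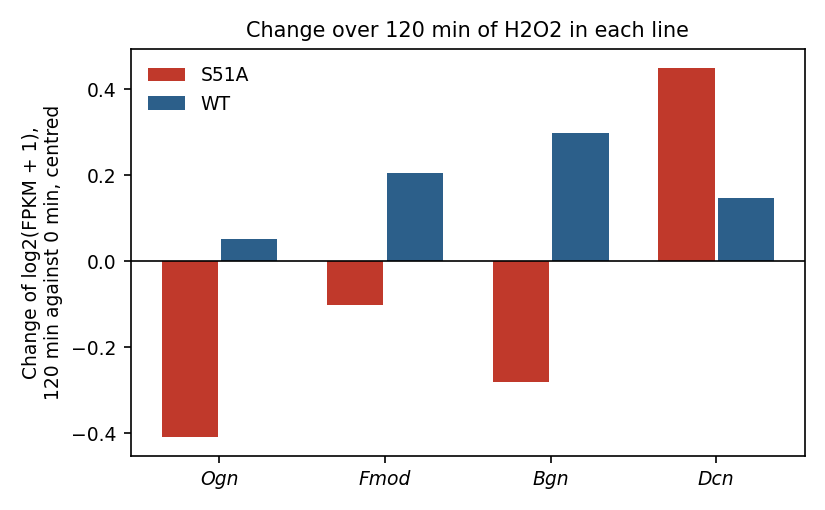
Change of log2(FPKM + 1) from 0 to 120 min of hydrogen peroxide in S51A (left bars) and WT (right bars), centred on the median gene of each line. Ogn, Fmod and Bgn had values below 0 in S51A and above 0 in WT, and Dcn was above 0 in both. The WT value of Ogn was near 0, at 0.053, and fell below 0 without centring.

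Because both lines share a table at each time, the log2 ratio of S51A over WT can be set between times without a scaling that is common to both lines. From 0 to 120 min it moved by -0.47 for Ogn, -0.66 for Bgn, 0.24 for Dcn and -1.55 for Fmod, while the median over all genes in both tables moved by -0.055. From 0 to 15 min it moved by 0.41 for Ogn, -0.31 for Bgn and 0.16 for Dcn, with a median of 0.01. None of these moves could be tested.

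Of the 10 further family genes looked up, 4 were listed (Podn, Podnl1, Chadl and Tsku). Podn, the class V gene of podocan, was at 2.10 FPKM in S51A and 0.0224 FPKM in WT at 15 min, with a q-value of 0.0176 in the authors' deposited table. Its relative Podnl1 was lower in S51A, at 5.74 FPKM in S51A and 8.51 FPKM in WT at 0 min and at 6.06 FPKM in S51A and 9.65 FPKM in WT at 15 min. Chadl, a chondroadherin-like gene, was at 1.85 FPKM in S51A and 0.420 FPKM in WT at 15 min and at 2.66 FPKM in S51A and 0.702 FPKM in WT at 120 min. Tsku, the gene of the secreted signalling modulator tsukushi, was at 10.6 FPKM in S51A and 12.8 FPKM in WT at 15 min. Members of this wider family were thus also found on both sides.

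Neighbouring genes were looked up within 200 kb of each member. Beside the Ogn and Aspn cluster, Nol8, a nucleolar protein gene, was lower in S51A at every time, at 9.92 FPKM in S51A and 18.6 FPKM in WT at 0 min. The next gene, Iars, an isoleucyl-tRNA synthetase gene, was also lower, at 52.7 FPKM in S51A and 77.7 FPKM in WT at 0 min and at 34.5 FPKM in S51A and 85.6 FPKM in WT at 120 min. Bicd2 was lower at 15 min, at 23.1 FPKM in S51A and 29.2 FPKM in WT. The listed genes flanking this cluster therefore lay on the side opposite to Ogn.

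Near Fmod, the antiproliferative gene Btg2 was higher in S51A at every time, at 6.77 FPKM in S51A and 1.89 FPKM in WT at 0 min. Atp2b4, a calcium pump gene within 200 kb of Prelp, was likewise higher, at 6.96 FPKM in S51A and 0.503 FPKM in WT. Near Bgn, the phosphatase gene Dusp9 was at 6.36 FPKM in S51A and 30.1 FPKM in WT, and the creatine transporter gene Slc6a8 at 20.4 FPKM in S51A and 45.6 FPKM in WT, both at 0 min and both lower in S51A at every time. Zfp275 near Bgn was higher at 0 min, and Haus7 and Bcap31 were higher at 120 min. No other listed gene lay within 200 kb of Dcn.

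The genes whose 6 group values were most like those of Ogn, Dcn and Bgn were sought among 3826 genes listed at all times. Likeness was the Euclidean distance between log2(FPKM + 1) profiles over the 6 group values, each centred on its own mean. Nearest to Ogn was Cthrc1, which encodes a secreted collagen triple helix repeat protein, at a distance of 1.14. It was at 139 FPKM in S51A and 0.566 FPKM in WT at 0 min and at 167 FPKM in S51A and 1.17 FPKM in WT at 120 min. Plac8 and the homeobox gene Rhox12 followed at distances of 1.33 and 1.46. In S51A, Plac8 was at 232 FPKM at 0 min and 501 FPKM at 120 min, and Rhox12 at 83.3 and 194 FPKM. All 3 genes were thus higher in S51A at 120 min than at 0 min, whereas Ogn went from 229 to 152 FPKM. Likeness to Ogn therefore lay in the gap between the lines, not in the course over time. For Dcn the nearest were Svip at 0.194, the adenylate kinase gene Ak5 at 0.228 and Fxyd5 at 0.273. For Bgn they were the kinase gene Lyn at 0.0886, Tfdp2 at 0.102 and Sytl2 at 0.107. The distance grows with the gap between the lines, so distances are not compared between members. With a pseudocount of 0.1, 2 of 3 names were the same for Ogn, 1 for Dcn and 0 for Bgn.

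For the lists of related genes that follow, the background over all entries is 49.6%, 49.9% and 50.9% higher and a median log2 ratio of -0.27, -0.20 and 0.41 at 0, 15 and 120 min. Genes that build the sulfated chains were listed on both sides. For the linker and chondroitin or dermatan sulfate chains, 20 of 28 genes were listed at 0 min, 12 higher and 8 lower, 20 at 15 min, 12 higher and 8 lower, and 11 at 120 min, 6 higher and 5 lower. The median log2 ratio of the listed genes was 0.42, 0.51 and 0.46 at 0, 15 and 120 min, close to the 0.41 of all entries at 120 min. Csgalnact1, which starts chondroitin chains, was lower, at 0.156 FPKM in S51A and 2.79 FPKM in WT at 0 min. Chst7, a chondroitin sulfotransferase gene, was lower too, at 0.637 FPKM in S51A and 3.68 FPKM in WT. Chst12, which sulfates chondroitin at another position, was higher, at 26.2 FPKM in S51A and 15.9 FPKM in WT at 0 min and at 13.6 FPKM in S51A and 3.89 FPKM in WT at 120 min. Chst13 was at 1.08 FPKM in S51A and listed at 0 in WT at 0 min.

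For keratan sulfate, the chain type of fibromodulin and lumican, 7 of 13 genes were listed at 0 min, with 2 higher and 5 lower. At 15 min 6 were listed, 3 on each side, and at 120 min 5, with 2 higher and 3 lower. The medians were -0.47, -0.15 and -0.55. B4galt4, a galactosyltransferase gene of this chain, was higher, at 8.51 FPKM in S51A and 1.15 FPKM in WT at 0 min, and B4galt1 was at 34.3 FPKM in S51A and 20.1 FPKM in WT. Chst1, a keratan sulfate sulfotransferase gene, was lower, at 1.62 FPKM in S51A and 10.4 FPKM in WT, and Chst2 was at 3.63 FPKM in S51A and 5.94 FPKM in WT.

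The collagens to which these proteoglycans bind lay mostly on the side of Ogn. Of 28 fibril collagen and fibril-associated genes, 18 were listed at 0 min, 15 higher and 3 lower, and 16 at both later times, 14 higher and 2 lower. The medians were 2.13, 2.05 and 1.82, against -0.27, -0.20 and 0.41 over all entries. Col6a3, a chain of collagen VI, which biglycan and decorin bind, was at 8.40 FPKM in S51A and 0.438 FPKM in WT at 0 min. Col6a1 was at 212 FPKM in S51A and 32.2 FPKM in WT, and Col6a2 at 125 FPKM in S51A and 11.0 FPKM in WT. Col1a2 was at 1067 FPKM in S51A and 167 FPKM in WT at 15 min. Tnc, the tenascin-C gene, was among the genes on the other side, at 27.3 FPKM in S51A and 67.6 FPKM in WT at 120 min. It was chosen for naming after its values were seen.

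Collagen processing and cross-linking genes had 16 of 17 listed genes higher at 0 min, 16 of 18 at 15 min and 9 of 10 at 120 min, out of 27, with medians of 0.84, 0.76 and 0.98. Lox, the lysyl oxidase gene, was at 340.1 FPKM in S51A and 73.5 FPKM in WT at 0 min. P3h3, a prolyl hydroxylase gene, was at 23.1 FPKM in S51A and 7.26 FPKM in WT. Pcolce2, a procollagen C-proteinase enhancer gene, was at 7.84 FPKM in S51A and 0.570 FPKM in WT at 120 min.

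Proteases known to cut family members were split by enzyme. Of 15 genes, 10 were listed at 0 min and at 15 min, 7 higher and 3 lower each time, and 8 at 120 min, 6 higher and 2 lower, with medians of 1.38, 1.32 and 1.09. Mmp14, a membrane-bound metalloproteinase gene, was at 140.1 FPKM in S51A and 37.8 FPKM in WT at 0 min, and Mmp9 at 1.13 FPKM in S51A and 0.293 FPKM in WT. Mmp13, a collagenase gene whose product also cuts fibromodulin, was lower, at 5.82 FPKM in S51A and 37.8 FPKM in WT at 0 min. Mmp3, the stromelysin gene, was at 4.79 FPKM in S51A and 90.5 FPKM in WT at 15 min. Bmp1, which removes the propeptides of biglycan and osteoglycin and was named after its values were seen, was at 30.3 FPKM in S51A and 11.6 FPKM in WT at 0 min.

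Of 29 genes for ligands and receptors of these proteins, 15 were listed at 0 min, 11 higher and 4 lower, 21 at 15 min, 10 higher and 11 lower, and 14 at 120 min, 10 higher and 4 lower. The medians were 1.07, -0.24 and 1.32, against -0.27, -0.20 and 0.41 over all entries, so both the median and the split at 15 min were near those of all entries. The TGF-β ligand genes Tgfb2 and Tgfb3 were higher at every time, Tgfb2 at 5.28 FPKM in S51A and 0.210 FPKM in WT and Tgfb3 at 32.4 FPKM in S51A and 2.43 FPKM in WT at 0 min. Tgfb1, named after its values were seen, was listed at 15 min only and was lower, at 11.6 FPKM in S51A and 14.1 FPKM in WT. Tlr2, a receptor of soluble biglycan, was at 9.19 FPKM in S51A and 1.55 FPKM in WT at 0 min. Tlr4, also such a receptor and named after its values were seen, was listed at 15 min only. It was lower there, at 4.32 FPKM in S51A and 5.46 FPKM in WT. Bmp2 was listed at 15 min, at 0 in S51A and at 1.16 FPKM in WT. The growth factor receptor genes Egfr and Met, both receptors of decorin and named after their values were seen, lay on opposite sides. Egfr was at 16.0 FPKM in S51A and 1.26 FPKM in WT at 0 min, and Met at 11.9 FPKM in S51A and 28.4 FPKM in WT.

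**Figure D5:**
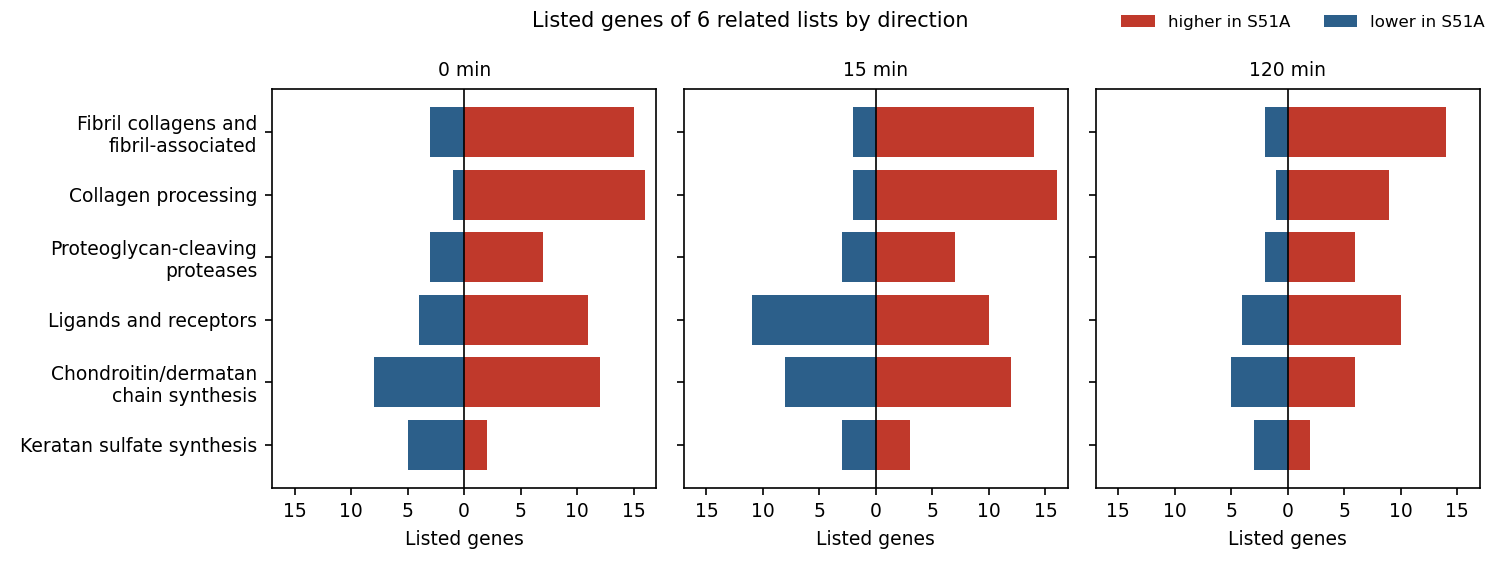
Listed genes of 6 related lists at each time, higher in S51A to the right of 0 and lower in S51A to the left. Collagen and collagen processing genes were mostly to the right, with 15 to 3 and 16 to 1 at 0 min, whereas chain synthesis genes lay on both sides.

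Markers of the labelled cell type were listed in both lines, on both sides. Of 12 fibroblast markers, 9 were listed at 0 min, 5 higher and 4 lower in S51A, 11 at 15 min, 6 higher and 5 lower, and 7 at 120 min, 5 higher and 2 lower. None was at 0, and their summed level over the genes listed at each time ran from 2773 to 4215 FPKM in S51A and from 939 to 2894 FPKM in WT. The collagen genes Col1a1, Col1a2 and Col3a1, which are also in the collagen list, were higher, Col1a1 at 1160.1 FPKM in S51A and 241 FPKM in WT at 0 min. Vim, the vimentin gene, was lower, at 1075 FPKM in S51A and 1872 FPKM in WT at 0 min. Thy1, a surface marker, was lower too, at 10.6 FPKM in S51A and 23.6 FPKM in WT, as were Twist1 and Twist2 at 0 and 15 min. Vim, Thy1, Twist1 and Twist2 were named after their values were seen.

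Smooth muscle and myofibroblast markers had 2, 4 and 3 of 7 listed at 0, 15 and 120 min, all higher in S51A, with sums of 123 to 384 FPKM in S51A and 24.0 to 100.4 FPKM in WT. Acta2, the smooth muscle actin gene, was at 110.7 FPKM in S51A and 23.6 FPKM in WT at 0 min. Tenocyte markers had 2 of 5 listed at each time, both higher at 0 and 15 min and 1 on each side at 120 min. Scx, a tendon transcription factor gene, was at 56.1 FPKM in S51A and 5.39 FPKM in WT at 0 min and made up most of the S51A sums of 60.0 and 70.7 FPKM at 0 and 15 min, against WT sums of 6.09 and 4.57 FPKM. Scx was not listed at 120 min, when the sums of 12.0 FPKM in S51A and 5.11 FPKM in WT came from Egr2, which was higher, and Mkx, which was lower at 3.03 FPKM in S51A and 4.50 FPKM in WT. Tnmd was in no table.

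Osteoblast markers had 2, 3 and 1 of 8 listed, with sums of 91.6 to 123 FPKM in S51A and 822 to 933 FPKM in WT. Nearly all of that was Spp1, the osteopontin gene, at 83.9 FPKM in S51A and 923 FPKM in WT at 0 min. Runx2 was also lower at 0 and 15 min, and Alpl, named after its values were seen, was higher at 15 min, at 0.785 FPKM in S51A and 0.116 FPKM in WT. Chondrocyte markers had 2, 2 and 3 of 7 listed, with sums of 10.9 to 14.3 FPKM in S51A and 21.7 to 24.8 FPKM in WT. Those sums were carried by Sox9, which was lower at every time. The other listed chondrocyte markers were higher in S51A, Matn3 at every time, at 0.753 FPKM in S51A and 0.188 FPKM in WT at 0 min, and Col2a1 at 120 min. Matn3 was named after its values were seen.

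The sums of adipocyte markers changed side between times, and the listed genes differed between times. At 0 min 5 of 7 were listed, 1 higher and 4 lower, with sums of 18.5 FPKM in S51A and 36.6 FPKM in WT. At 15 min 3 were listed, 2 higher and 1 lower, with sums of 23.8 FPKM in S51A and 10.2 FPKM in WT. At 120 min 4 were listed, 2 on each side, with sums of 55.4 FPKM in S51A and 35.8 FPKM in WT. Most of these sums was Fabp4, which was listed at all times and itself changed side. It was at 16.6 FPKM in S51A and 30.3 FPKM in WT at 0 min. At 15 min it was at 22.0 FPKM in S51A and 9.06 FPKM in WT, and at 120 min at 52.3 FPKM in S51A and 30.9 FPKM in WT. Pparg was higher and Lpl lower at every time. Fabp4 and Lpl were named after their values were seen. The part of cell state in the differences of Ogn, Dcn and the other members was not tested.

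Markers of unrelated types were few among the listed genes. Macrophage markers had 2, 1 and 1 of 8 listed, lower in S51A at 0 and 120 min and higher at 15 min, at sums of 0.165 to 1.59 FPKM in S51A and 0.415 to 4.09 FPKM in WT. Epithelial markers had 1 of 7 listed at each time, Krt19, at 8.17 FPKM in S51A and 6.06 FPKM in WT at 0 min. Mesothelial markers had 1 of 4 listed, Msln, at 12.6 FPKM in S51A and 5.98 FPKM in WT at 0 min. None of the 6 endothelial markers was in any table.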

How the data were processed

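Per the submitters' processing notes, STAR, Cufflinks and Cuffdiff were used on mm10; versions, roles and annotation are not given in the sources used here. Per the file headers, the authors deposited log2 FPKM values of both lines with their log2 ratio and its q-value, so replicates were combined before deposit. All deposited entries are marked significant. A log2 value of -10 stands for a line listed at 0. The deposited ratio is S51A minus WT, within 0.01. Values are rounded to 0.01, an error of up to 0.347% in FPKM.

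FPKM was recovered as a power of 2 (Python 3.11.15, pandas 2.3.3), and folds are ratios of these values. No test across samples was possible. The 8 genes and all lists were chosen with earlier results of these data known. Named genes were the members, listed family genes, neighbours within 200 kb, the 3 nearest profiles per member listed at all times, and up to 4 genes per list by size of log2 ratio at 120 min, else 0 min, else 15 min, with at least 1 FPKM in the higher line at that time. Entries with several, repeated or date-like symbols were left out of profiles and time changes. Positions are mm10, with 1 added to deposited starts: 47.8% of 7277 matched genes then had the RefSeq start, against 4.01% without. The functions were tested on simulated data. Alternatives were other pseudocounts, filters, a minimum fold and centring. A further column, a quotient of log2 values, was not used.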

Additional observations from a re-analysis of the deposited data

How the results depend on the processing

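The members were counted again under 3 filters at each time and direction, giving 18 counts, of which 14 stayed within 1.5 times. With a minimum fold of 2, 1 member was lower in S51A at 0 min, 1 at 15 min and 1 at 120 min, against 2 each without it, because Bgn was under 2-fold. With at least 5 FPKM in the higher line, 1 member was higher at 0 min, against 2, because Fmod was under it. Of 42 changes over time recomputed with another pseudocount or centring, 41 kept their direction. The exception was Ogn in WT at 120 min, at -0.045 with no centring against 0.053, and 0.00032 with a pseudocount of 0.1. A limit of 1.5-fold on size was also met, but each change as first computed was smaller than that, so the limit could hardly fail. With a pseudocount of 0.1, Fmod in WT at 120 min went from 0.21 to 0.68, and Ogn in WT at 15 min from -0.13 to -0.32. Pseudocounts shrank the ratios of members low in WT: with 1 added, the log2 ratio was 7.21 for Ogn and 1.45 for Fmod at 0 min, and 2.69 for Aspn at 120 min. Adding the same constant to both lines cannot reverse the direction of a ratio, so direction was not put to a test here. No paired analysis was possible because the tables hold 1 value per line and time, and leaving out each replicate was not run for the same reason. Depth is unknown, so values under 1 FPKM, among them all WT values of Ogn, Fmod and Aspn, have unknown precision.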

Other observations

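Other proteoglycans also lay on both sides, but more were higher than lower in S51A at each time. Over all entries 49.6%, 49.9% and 50.9% were higher at 0, 15 and 120 min. The median log2 ratio of the listed genes was 0.915, 0.74 and 0.91, against -0.27, -0.20 and 0.41 over all entries. Of 30 genes for large, membrane-bound or hyaluronan-linked proteoglycans and hyaluronan synthases, 10 were listed at 0 min, 7 higher and 3 lower in S51A, 14 at 15 min, 10 higher and 4 lower, and 11 at 120 min, 8 higher and 3 lower. Gpc2, a glypican gene, was at 6.23 FPKM in S51A and 0.409 FPKM in WT at 0 min. Has2, a hyaluronan synthase gene, was lower, at 2.62 FPKM in S51A and 9.19 FPKM in WT at 0 min. Ptprz1 was at 2.39 FPKM in S51A and listed at 0 in WT at 15 min, and Srgn, the serglycin gene, was at 1.39 FPKM in S51A and listed at 0 in WT at 120 min. Vcan, the versican gene, named after its values were seen, was at 9.71 FPKM in S51A and 18.5 FPKM in WT at 0 min.

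The WT values of a pair of matrix genes were low at 0 and 15 min. Hspg2, the perlecan gene, named after its values were seen, was at 44.6, 32.0 and 20.7 FPKM in S51A at 0, 15 and 120 min, against 0.642, 0.570 and 10.9 FPKM in WT. Loxl2, a lysyl oxidase gene, was at 56.5 FPKM in S51A and 0.0261 FPKM in WT at 0 min and at 52.7 FPKM in S51A and 0.00969 FPKM in WT at 15 min. The q-value of Loxl2 in the authors' deposited tables was 0.01 at 0 min and 0.0211 at 15 min. Of the 7555 entries at 0 min, 6576 had a q-value no larger, and of the 8308 at 15 min, 7790 did. The table of 120 min does not list Loxl2.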
